A study of Rattus norvegicus with 6 samples.

Results

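The transcripts described here are those of 10 rat genes for protein disulfide isomerases (PDIs) and their oxidases in the endoplasmic reticulum (ER), namely P4hb, Pdia3, Pdia4, Pdia6, Txndc5, Txndc12, Erp29, Erp44, Ero1a and Ero1b. They were taken from the array's annotation, as probe sets (several short probes that read the same transcript) that carry a single gene symbol equal to 1 of these names. All 10 genes were found among 14217 genes so annotated, on 15 of 31042 probe sets, and the probe set with the highest mean intensity stood for its gene. The beta cells came from male Wistar rats aged 10 weeks that either ate freely (fed) or had fasted for 24 h (fasted). They were sorted by fluorescence-activated cell sorting (FACS) and frozen right after isolation, and the labels name no transgene or drug. Each group held 3 isolates, each pooled from 5 rats and hybridized on 1 array. Intensities are the linear values the authors deposited, and a change is the log2 ratio of fasted over fed from limma. A gene counted as lower or higher when it passed the study's thresholds, which are a change of 1.5-fold or more together with p under 0.05 before adjustment. The p-values here are from limma and not from the study's own analysis, which reported a smaller share of changed transcripts.

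Proinsulin is a disulfide-bonded protein, and its bonds are formed in the ER soon after synthesis. PDIs carry thioredoxin folds, most of them with a pair of cysteines that hands a disulfide to the client or shuffles a wrong one. The oxidases ERO1 alpha and ERO1 beta recharge PDIs by passing the electrons on to oxygen, which yields hydrogen peroxide. Several of these genes are known targets of the unfolded protein response, through the factors ATF6 and XBP1.

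After fasting, 4 of the 10 genes were lower and none was higher. These were Pdia4, P4hb, Pdia3 and Pdia6. Their log2 changes were -1.45, -0.76, -0.76 and -0.73, so that Pdia4 stood at 36.6% of its fed level and the other 3 at 59.1% to 60.5%. The other 6 genes also had negative changes, from -0.52 for Ero1b to -0.09 for Txndc12, but did not pass. Of all probe sets 8.43% were lower and 2.37% higher at the same thresholds, and 12.7% were lower among the probe sets above the median brightness, to which all 10 belonged. The median log2 change was -0.51 over the 10 genes against -0.20 over all probe sets and -0.24 over the brighter ones. For 8 of the 10 genes every fasted array lay below every fed array, which held for 17.6% of all probe sets and 24.9% of the brighter ones. Under each of 3 other scalings of the arrays it held for 6, as Erp29 and Ero1a then overlapped. The share of all probe sets was not counted under those scalings. None of the 10 passed an adjusted p under 0.05 from limma, where the smallest was 0.155 for Pdia6. An unadjusted p under 0.05 from limma was found for 8 of them and for 4622 of the 31042 probe sets. When the brighter probe sets were fitted alone, 3429 of 15520 had such a p. Pdia3, Pdia6, Erp29, Erp44 (then Txndc4) and Ero1a belong, with rat probe sets, to the study's own panel of beta cell markers, chosen for abundance in these cells and then examined for fasting on these same arrays, so their values are not independent evidence of the direction. The panel lists Ero1b without a rat probe set. Since the samples are bulk RNA, fewer beta cells and less of a transcript per cell cannot be told apart.

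**Figure D1:**
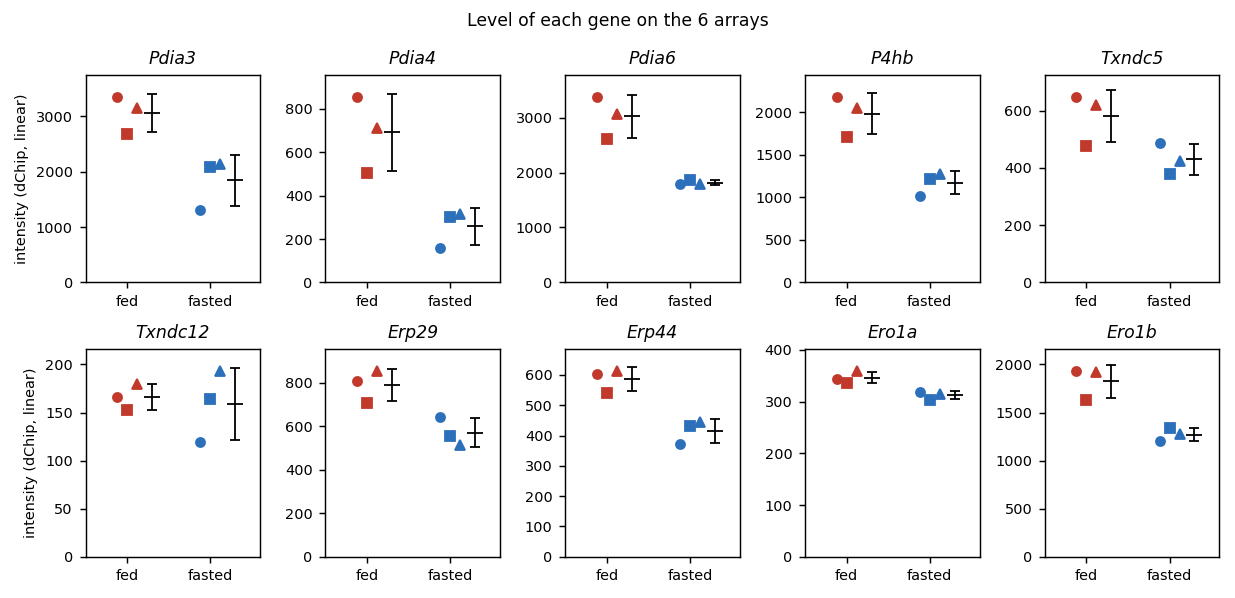
Linear intensity of each gene on the 6 arrays, with red symbols for fed and blue for fasted isolates and circles, squares and triangles for replicates 1, 2 and 3; black bars give the mean ± SD of 3 arrays. The groups are separated for every gene except Txndc5 and Txndc12, and Pdia4 shows the largest ratio between the groups, with means of 691 and 258.

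P4hb encodes the founding PDI, which is also the beta subunit of collagen prolyl 4-hydroxylase. Its intensity was 2182, 1713 and 2055 in fed and 1020, 1220 and 1274 in fasted rats, with means of 1983 ± 242 and 1171 ± 134 (SD, n = 3 each). All fasted arrays lay well below the lowest fed one. The log2 change of P4hb was -0.76 ± 0.13 (SE; limma, unadjusted p = 0.000941, adjusted p = 0.172).

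Pdia3 (ERp57) works with the lectins calnexin and calreticulin on glycoproteins. It measured 3354, 2688 and 3153 in fed and 1315, 2085 and 2144 in fasted rats, means of 3065 ± 341 and 1848 ± 463 (SD, n = 3 each). Fasted replicate 1 was far below the other fasted arrays, yet the groups did not overlap. The log2 change was -0.76 ± 0.21 (SE; limma, unadjusted p = 0.00986, adjusted p = 0.245), and without fasted replicate 1 it was -0.53, short of 1.5-fold. A second, dimmer probe set of Pdia3 was also lower, with a log2 change of -1.11 and means of 187 ± 29.4 and 88.7 ± 25.8 (SD, n = 3 each).

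Pdia4 (ERp72), which has several thioredoxin-like domains, had the largest change of the 10. Its intensity was 855, 506 and 712 in fed rats and 159, 302 and 314 in fasted rats. The replicates spread widely, with SDs of 25.4% and 33.3% of the means, and the groups were still far apart. The log2 change was -1.45, with a 95% confidence interval of -2.22 to -0.68 (unadjusted p = 0.00346 and adjusted p = 0.199 from limma).

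Pdia6 (P5), another PDI with catalytic domains, measured 3377, 2614 and 3066 in fed and 1786, 1863 and 1798 in fasted rats. The fasted arrays agreed within 2.27% (SD over mean), the narrowest spread among the brightest probe sets of the 10 genes in either group. Its log2 change of -0.73 had a standard error of 0.10 and the smallest p of the 10 (unadjusted p = 0.000382, adjusted p = 0.155 from limma).

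Txndc5 (ERp46) and Txndc12 (ERp18) are the remaining PDIs of the list with a catalytic cysteine pair. Txndc5 measured 649, 478 and 619 in fed and 488, 380 and 424 in fasted rats, and fasted replicate 1 overlapped fed replicate 2. Its log2 change was -0.43 (unadjusted p = 0.0288, adjusted p = 0.294 from limma), under 1.5-fold. Txndc12 measured 166, 153 and 180 in fed and 120, 164 and 193 in fasted rats, with overlapping groups. The 95% confidence interval of its log2 change, -0.55 to 0.37, holds both falls and rises. The sign of Txndc12 turned to positive under each other scaling of the arrays, at 0.09 to 0.15.

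Erp29 has a thioredoxin fold without the catalytic cysteine pair and acts as a chaperone. It measured 807, 707 and 853 in fed and 643, 553 and 512 in fasted rats. The groups did not overlap, and the log2 change was -0.47 ± 0.12 (SE; limma, unadjusted p = 0.00653, adjusted p = 0.221), which is 1.39-fold and below the threshold.

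Erp44 holds ERO1 oxidases and unassembled clients back in the early secretory pathway, since it forms mixed disulfides with them. On the brightest of its 3 probe sets it measured 603, 540 and 612 in fed and 371, 431 and 443 in fasted rats, again without overlap. The log2 changes of the 3 probe sets, from the brightest to the dimmest, were -0.50, -0.58 and -0.74. Only the dimmest passed both thresholds, and the mean of all 3 did too, with -0.61 (unadjusted p = 0.00205 from limma).

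**Figure D2:**
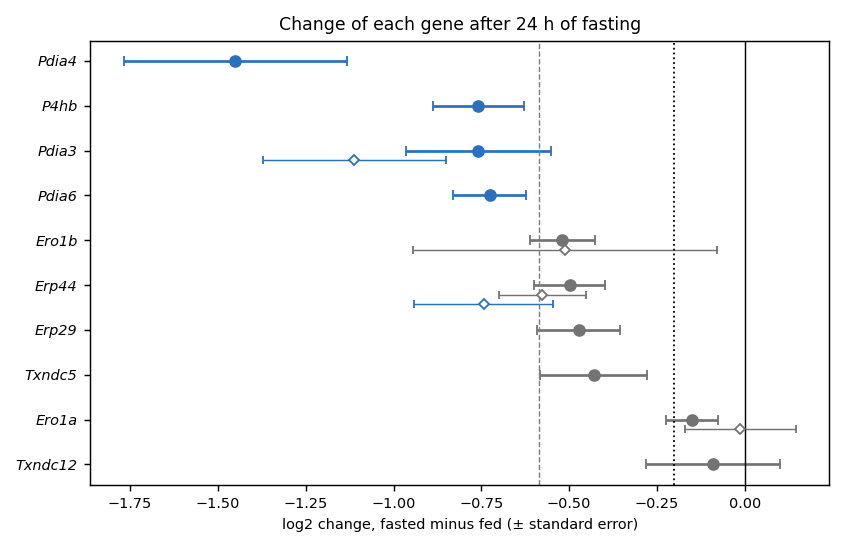
Log2 change (fasted minus fed) with its standard error for the brightest probe set of each gene (filled circles) and for its other probe sets (open diamonds); blue marks probe sets that passed both thresholds and grey those that did not. The solid line marks 0, the dotted line the median of all probe sets, -0.20, and the dashed line 1.5-fold; Pdia4 lies farthest from the other genes, at -1.45.

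The pair of ER oxidases differed in their values. Ero1b, the paralogue enriched in the pancreas, measured 1930, 1629 and 1916 in fed and 1199, 1334 and 1281 in fasted rats. Its groups were clearly separated, and the log2 change was -0.52 ± 0.09 (SE; limma, unadjusted p = 0.00128, adjusted p = 0.176), short of 1.5-fold. Without fed replicate 2 it was -0.60 and passed. A dimmer Ero1b probe set, with fed values of 75.5 to 108 and fasted values of 35.5 to 117, overlapped between the groups at about the same log2 change, -0.51 (unadjusted p = 0.281 from limma). Ero1a, the widely expressed oxidase, measured 344, 337 and 359 in fed and 318, 304 and 315 in fasted rats. Its values did not overlap, but the gap was narrow, with a log2 change of -0.15 and a 95% confidence interval of -0.33 to 0.03. Its other probe set measured 98.4, 106 and 110 in fed and 86.7, 105 and 123 in fasted rats, without a shift (-0.01).

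The ratio of Ero1b to Ero1a within an array does not depend on a scaling factor applied to the whole array. The brightest probe set of each gene was used. On the log2 scale the ratio was 2.49, 2.27 and 2.42 in fed and 1.91, 2.13 and 2.02 in fasted rats. All 3 fasted ratios were below the fed ones, and the means differed by -0.37 (exact permutation test, two-sided, p = 0.1, the smallest that 3 against 3 arrays can give). This single pair was compared after its values had been seen, so the p-value does not weigh the difference. On these probe sets the ratio shows an unequal change, not that Ero1a did not change. The dimmer probe sets of both genes overlapped between the groups, and their ratio was not compared.

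Promoter sequences are shown for the gene with the largest change (Pdia4), for P4hb, for the gene with the smallest (Txndc12) and for the oxidase whose promoter held an ER stress element (Ero1b). They come from RefSeq on the rat build GRCr8 and run from 250 bases before to 50 bases after the annotated start, in the direction of the gene. The table used held such windows for 7 of the 10 genes, with Pdia3, Pdia6 and Ero1a not among them. Capitals mark the letters CCACG in either direction (CGTGG on the opposite strand) and the partner CCAAT (or ATTGG) of an ER stress element, which is CCAAT followed after 9 bases by CCACG. The windows lie at chr4:78153142-78153441 (minus strand, Pdia4), chr10:106346862-106347161 (minus, P4hb), chr5:128816296-128816595 (plus, Txndc12) and chr17:92941432-92941731 (plus, Ero1b).
Pdia4: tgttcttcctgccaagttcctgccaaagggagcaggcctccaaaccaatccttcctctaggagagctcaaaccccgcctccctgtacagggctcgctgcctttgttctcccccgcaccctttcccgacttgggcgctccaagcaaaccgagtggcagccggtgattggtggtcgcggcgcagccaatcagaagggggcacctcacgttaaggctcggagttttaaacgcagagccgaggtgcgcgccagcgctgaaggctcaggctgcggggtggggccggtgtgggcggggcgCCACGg
P4hb: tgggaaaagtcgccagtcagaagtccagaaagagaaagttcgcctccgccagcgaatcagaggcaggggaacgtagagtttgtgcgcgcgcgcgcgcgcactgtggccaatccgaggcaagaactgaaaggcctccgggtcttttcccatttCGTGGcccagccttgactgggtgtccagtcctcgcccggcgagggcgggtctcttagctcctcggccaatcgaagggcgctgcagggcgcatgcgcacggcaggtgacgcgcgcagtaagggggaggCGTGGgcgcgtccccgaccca
Txndc12: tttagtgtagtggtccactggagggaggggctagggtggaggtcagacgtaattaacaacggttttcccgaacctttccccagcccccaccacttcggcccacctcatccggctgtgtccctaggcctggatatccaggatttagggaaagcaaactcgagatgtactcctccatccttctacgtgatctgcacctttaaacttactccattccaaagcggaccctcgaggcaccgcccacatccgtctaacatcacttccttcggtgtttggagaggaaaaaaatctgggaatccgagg
Ero1b: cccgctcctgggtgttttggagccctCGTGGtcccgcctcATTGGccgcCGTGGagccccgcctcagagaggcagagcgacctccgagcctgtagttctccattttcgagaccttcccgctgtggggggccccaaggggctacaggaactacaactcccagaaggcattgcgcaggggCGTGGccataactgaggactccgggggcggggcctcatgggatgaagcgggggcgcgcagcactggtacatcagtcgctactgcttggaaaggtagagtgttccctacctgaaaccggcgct

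Of the 7 windows, that of Ero1b alone held the complete ER stress element, on the opposite strand and starting 224 bases before the annotated start, and 0.0657% of 33469 promoter windows of the same length held it on either strand. CCACG alone, which the element includes, was in 5 of the 7 windows (Pdia4, P4hb, Txndc5, Erp29 and Ero1b) and in 31.6% of all windows. TGACGT was in the window of Erp29 and in 7.94% of all windows. TGACGTGG, which contains TGACGT, was in none of the 7 (0.595% of all), and neither was TGATGNAA (3.98% of all). The windows of these genes were GC-rich, with a median of 64.3% against 51.7% over all windows. These are matches of letters, and an element with another letter or outside the window would not be found.

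The fall was not of one size on all arrays. In the fed group replicate 2 was the lowest array for all 10 genes, and in the fasted group replicate 1 was the lowest for 7 of them. Relative to the mean of the 6 arrays, the median of the 10 genes lay at 0.36, 0.12 and 0.34 (log2) in fed and at -0.40, -0.23 and -0.24 in fasted rats. The same median over all probe sets was 0.11, 0.11 and 0.07 in fed and -0.25, -0.12 and 0.06 in fasted rats. Fasted replicate 1 was low over the whole array as well. On fasted replicate 3 the median of all probe sets lay at 0.06 and that of the 10 genes at -0.24. The part of whole-array intensity in these values was not tested.

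How arrays were scaled changed the size of every change. Scaling each array to its 75th percentile brought the median of all probe sets to 0.01 and left 1 of the 10 genes lower, Pdia4 with a log2 change of -1.21, against 4.28% of all probe sets. Scaling to the array median also left Pdia4 alone (-1.27), against 5.29%. There Pdia3 and P4hb came to -0.58 each, just short of 1.5-fold. After quantile normalization all of Pdia4, P4hb, Pdia3 and Pdia6 passed, against 4.83% of all probe sets. Under these 3 scalings the unadjusted p of the 4 genes stayed between 0.000538 and 0.024 (limma), so that it was the fold that fell short. Genes that did not pass shrank as well. Erp29 came to -0.29 (unadjusted p = 0.163, limma) with scaling to the median and to -0.23 (unadjusted p = 0.275, limma) with scaling to the 75th percentile, and Ero1b to -0.34 (unadjusted p = 0.0491, limma) and -0.27 (unadjusted p = 0.0713, limma). Expressed relative to the median of all probe sets under the same scaling, the change of Pdia4 was -1.22 to -1.29 and that of P4hb -0.53 to -0.61.

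**Figure D3:**
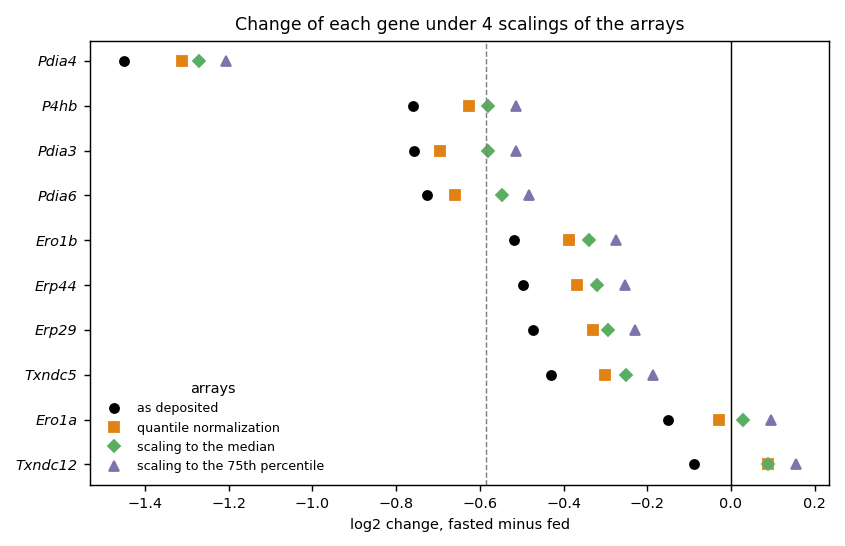
Log2 change (fasted minus fed) of the 10 genes with the arrays as deposited (black circles) and after quantile normalization (orange squares), scaling to the median (green diamonds) or to the 75th percentile (purple triangles); the dashed line marks 1.5-fold and the solid line 0. Pdia4 passes 1.5-fold throughout, and Ero1a and Txndc12 lie on both sides of 0.

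Markers of other cells were measured on the same arrays. Acinar cells, which make digestive enzymes and are rich in ER and PDIs, gave high signals in both groups. The paper describes its sorted rat beta cells as mostly insulin-positive with little exocrine contamination, whose effect it does not fully exclude. These signals do not measure the share of acinar RNA. The summed intensity of 15 measured acinar markers (of 17 listed) was 67240 to 72840 in fed and 62330 to 70970 in fasted rats, and the enzymes had means up to 6926 (Cpb1), close to the highest value of any probe set, 7629, where differences can be compressed. Of these 15 markers 1 was lower, against 8.43% of all probe sets, and none was higher, with a median log2 change of -0.04. The lower one was Ptf1a, a transcription factor of acinar cells that was far dimmer than the enzymes. Ptf1a measured 46, 29.4 and 54.9 in fed and 11.9, 10.7 and 16.9 in fasted rats. Its log2 change was -1.70 (unadjusted p = 0.0026, adjusted p = 0.19 from limma). Pdia2, the PDI that is typical of the exocrine pancreas, measured 443, 477 and 567 in fed and 160, 457 and 415 in fasted rats, with overlapping groups. The part of acinar RNA in the changes of the 10 genes was not tested. Of 4 measured duct markers Krt19 was higher (log2 change 0.70), as were 2.37% of all probe sets. The sum of the 4 was 353 to 403 in fed and 430 to 536 in fasted rats. On fed replicate 2, where all 10 genes were at their lowest of the fed arrays, glucagon (Gcg) was at 7629 against 4426 and 3532 on the other fed arrays, and at 4958 to 5769 on the fasted ones. Its part was not tested either. None of 7 measured beta cell markers (of 9 listed) passed, and their sum was 23600 to 24770 in fed and 22730 to 24170 in fasted rats. Endothelial, immune, red cell and mesenchymal marker lists had overlapping sums in the 2 groups, as had those of alpha, delta and PP cells, and none of their genes passed.

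Other genes of disulfide formation in the ER were measured from a list of 36, of which 34 had a probe set with that single symbol (all but Pdilt and Agr3). In total 10 were lower, none was higher and 24 did not pass. Their median log2 change was -0.31, against -0.20 over all probe sets. Among 13 other PDI-like proteins, 3 were lower. Creld2, a secreted protein with a CXXC motif that is induced in ER stress, went from 1197 ± 274 to 533 ± 12.6 (SD, n = 3 each), a log2 change of -1.14. Pdia5 had a log2 change of -0.88 and Creld1, a relative of Creld2, -0.75. The membrane-bound thioredoxin proteins Tmx1, Tmx2, Tmx3 and Tmx4 did not pass, with log2 changes of -0.36, -0.27, -0.08 and 0.03, and were chosen for naming with these values known.

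Of 7 other enzymes that put disulfides in place, 3 were lower, where 8.43% of all probe sets were. The sulfhydryl oxidase Qsox2 changed by -0.68 (log2) and Vkorc1l1, of the vitamin K epoxide reductase family, by -0.79. Gpx7, a peroxidase of the ER, was dim and overlapped between the groups, with a log2 change of -1.31. Prdx4, the peroxiredoxin that uses the peroxide made by ERO1, measured 824 and 769 on average and did not pass (log2 change -0.11), and it was named after its value had been seen. Among 6 selenoproteins of the ER, Selenom (-1.07) and Selenok (-0.64) were lower, while Selenof (-0.28) and Selenon (-0.58) did not pass. Of 8 partners of the PDIs, Calr (-0.62) and P4ha1 (-0.71) were lower. P4ha1 is the catalytic subunit that P4hb joins in prolyl 4-hydroxylase. Canx, the membrane-bound counterpart of Calr, had a log2 change of -0.25 and P4ha3 one of -0.80, and neither passed. The count of 10 fell to 3 after quantile normalization or scaling to the 75th percentile and to 4 after scaling to the median. Of all probe sets, 4.83%, 4.28% and 5.29% were lower after quantile normalization, 75th percentile and median scaling, against 8.43% as deposited. The count of 10 was 5 without fed replicate 1, 4 without fed replicate 3 and 6 without fasted replicate 1. No share over all probe sets was counted with an array left out.

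Outside the ER, 1 of 22 measured genes of the thioredoxin and glutathione systems was lower, against 8.43% of all probe sets, and none higher. It was Gss, glutathione synthetase, with a log2 change of -0.95, and it did not pass without fed replicate 1 or without fed replicate 2. The median over the 22 genes, -0.20, equalled that of all probe sets. Cytosolic thioredoxin, Txn1, had means of 1214 and 882 (log2 change -0.46), and the peroxiredoxin Prdx5 (-0.39) and the glutaredoxin Glrx (-0.40) also stayed under 1.5-fold. A difference between these genes and those of the ER was not tested.

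Among 20 measured regulators and targets of ER stress 7 were lower and 1 higher, against 8.43% and 2.37% of all probe sets. The lower ones were mostly chaperones and cofactors, Sdf2l1 (log2 change -1.59), Hyou1 (-1.17), Dnajb11 (-1.05), Hsp90b1 (-1.02), Dnajc3 (-0.95) and Manf (-0.68), besides the factor Atf6b (-0.86). Hyou1, Hsp90b1 and Manf (then Armet) are among those in the study's marker panel. Hspa5 (BiP), the main ER chaperone, measured 4648 and 3766 on average, a log2 change of -0.30. It did not pass because of its fold, with unadjusted p = 0.0202 and adjusted p = 0.28 from limma. Hspa5 was at percentile 99.9 of brightness, where a change can be compressed, but compression was not tested. The transcripts of the factors Xbp1, Atf6, Atf4 and Ddit3, singled out once their values were known, had log2 changes of -0.19, -0.05, -0.01 and -0.13 and did not pass, and on a transcript array their splicing, cleavage or translation was not measured. The higher gene was Trib3, a pseudokinase induced by ATF4, with 0.70.

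Of 9 measured transcripts of disulfide-bonded and other granule cargo none passed in either direction, where 8.43% of all probe sets were lower. Their median log2 change was -0.08, and a difference from the ER genes was not tested. Insulin transcripts Ins1 and Ins2 had log2 changes of 0.02 and 0.03. With Iapp and Cpe they had group means of 5370 to 7050, toward the upper limit of the arrays, where a change can be compressed. Compression was not tested. Chromogranin A (Chga) had the largest moderated t of this list, with a log2 change of -0.51, and Pcsk2 (-0.29), Chgb (-0.31) and Scg2 (-0.11) followed. At an unadjusted p under 0.05 from limma there were 2 of the 9, Chga and Pcsk2, against 4622 of the 31042 probe sets.

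**Figure D4:**
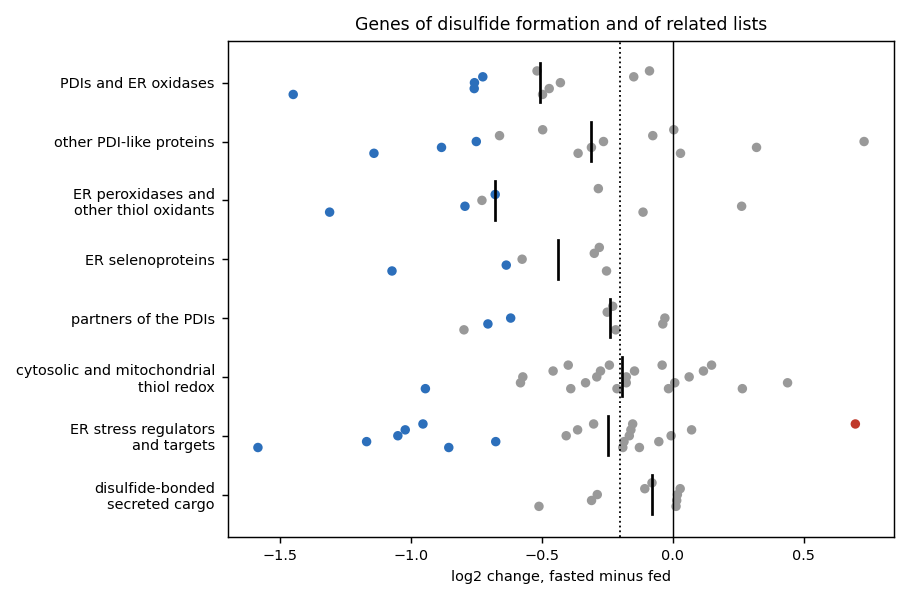
Log2 change (fasted minus fed) of the brightest probe set of each gene in 8 lists, with blue for lower, red for higher and grey for genes that did not pass; black bars are list medians and the dotted line is the median of all probe sets, -0.20. The bar of the PDIs and ER oxidases stands at -0.51, that of thiol redox genes outside the ER at -0.20 and that of the secreted cargo at -0.08.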

How the data were processed

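The deposited table holds 1 intensity per probe set and array for 6 arrays. The authors computed these linear intensities in dChip from its expression model, after normalizing to the array of median intensity and subtracting mismatch signal as background; the dChip version is not given in the sources used here. Here 57 control probe sets were left out, a floor was set at 3.27, the 10th percentile of the deposited table, and limma 3.58.1 (R 4.3.3) was run on log2 values of 31042 probe sets, with an intensity trend in eBayes and without a block. Tests were two-sided, and p-values were adjusted by Benjamini-Hochberg. The floor lies far below the 10 genes. The number of arrays limits the precision, and median intensity was 20.2 to 21.8 on fed and 17.1 to 21 on fasted arrays.

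Symbols came from the platform annotation, which names 20826 probe sets with 1 symbol, 436 with several and 9780 with none, and 20758 of the first matched RefSeq's gene numbers for GRCr8. Named genes are the 10, genes of the other lists that passed, and, where fewer than 3 of a list passed, the 4 with the largest moderated t, besides Hspa5, Calr, Canx, Ins1 and Ins2 whatever their values. Pdia2 and others so marked were named with their values known. The members, lists and tests were chosen with earlier results of these data known. Background correction was kept as the authors made it. Alternatives were other scalings (quantile, median, 75th percentile), a pseudocount, a higher floor (25th percentile), a filter on dim probe sets, other variance settings, array weights, Welch's test on linear values by group, the replicate number as a block, each array left out, and other uses of a gene's probe sets. The fit was tested on simulated data. Figures were drawn with matplotlib 3.10.9.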

Additional observations from a re-analysis of the deposited data

How the results depend on the processing

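Pdia4 passed in all 18 alternatives, with log2 changes from -1.66 to -1.13. Genes whose groups did not overlap were 6 in place of 8 under each scaling, for which no share over all probe sets was counted. The count of 4 lower genes was 1 after scaling to the median or to the 75th percentile, where the median log2 change of the 10 genes was -0.26 after the latter. With each array left out in turn it was 3 to 5, with the median at -0.58 to -0.47. An unadjusted p under 0.05 from limma was then found for 2560 to 8406 of all probe sets, against 4622 with all arrays. Pdia3 also missed 1.5-fold with array weights (-0.58). Txndc5 passed with array weights (-0.63) and Erp44 with the mean of its probe sets (-0.61). Txndc12 turned to 0.0895 with quantile normalization, 0.0893 with median scaling and 0.155 with 75th percentile scaling, and ranged from -0.244 to 0.102 with an array left out (positive without fasted replicate 1 only). Ero1a turned to 0.0291 with median and 0.0947 with 75th percentile scaling. The causes were not tested. Of the 34 other ER thiol genes 3 were lower in Welch's test on linear values, 3 after quantile normalization, 4 and 3 after the other scalings, and 4 to 12 with an array left out. Of the 22 genes outside the ER it was 2 with array weights or with any probe set of a gene counted, and 0 to 2 with an array left out. ER stress genes came to 4 in Welch's test, and cargo to 0 or 1 with an array left out. With dim probe sets left out, 3 of the 10 genes reached an adjusted p under 0.05 from limma, against 124 of 15520 probe sets. With a pseudocount it was 2 of the 10, against 83 of 31042, and with robust variance 2, against 88. With array weights, whose estimate did not converge, it was 9 of the 10, but also 9973 of the 31042 probe sets. In all other fits it was 0 of the 10. Replicate numbers were not taken as pairs. Deviations of same-numbered arrays correlated at 1e-04, 0.0107 and -0.0531 across probe sets, and those of differently numbered arrays at -0.0329 to 0.0337. With 3 arrays per group these values cannot show whether the isolates were paired. With the replicate number as a block 4 of the 10 genes and 11 of the 34 were lower. All 10 genes lay at or above percentile 88.2 of brightness, so the floor did not touch them.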
